A study of Mus musculus with 24 samples.

Results

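The change with time of the difference between endometriotic lesions and eutopic uterus, the uterus of mice with endometriosis, was measured by RNA sequencing. For each gene the lesion minus eutopic difference at 1 month after surgery was subtracted from that at 3 months, so that a value above 0 means that lesions stood further above, or less far below, the uterus at the later time. The comparison used 16 of the 24 libraries of the series, 4 from each of lesions at 1 month, eutopic uterus at 1 month, lesions at 3 months and eutopic uterus at 3 months. The other 8 libraries, from sham-operated mice, did not enter it.

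Mice of a mixed C57BL/6 and SV129 background had surgery at 8 weeks of age to induce endometriosis, were later mated, and gave tissue on pregnancy day 3.5. Those used at 1 month are labelled fertile and those at 3 months subfertile, so time after surgery, age and fertility cannot be told apart. Lesions are labelled Pgrcre/+Rosa26mTmG/+ and eutopic uterus Rosa26mTmG/+ at both times, while the series text gives the Cre driver to all mice with endometriosis. Cre in this line is expressed from the Pgr locus and Rosa26mTmG is a membrane fluorescence reporter. By the labels, genotype and tissue cannot be told apart in any lesion minus eutopic difference. The labels do not tie libraries to animals, so each p-value measures only the spread between libraries, which may be technical. Total counts ran from 45100000 to 59100000 per library.

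Lesion libraries differed in what tissue they held, most of all at 3 months. Within groups, log2 levels of libraries correlated across genes at 0.978 or more in eutopic uterus, at 0.959 or more in lesions at 1 month, and at only 0.828 to 0.975 in lesions at 3 months. Hoxa10, a positional gene of the uterus, stood at 0.827 and 13.3 CPM, counts scaled for library size, in lesion libraries 1 and 2 at 3 months, against 228 and 109 in libraries 3 and 4 and 356 to 416 in eutopic uterus. Library 1 held 31300 CPM of 20 ovarian steroid and gonadotropin receptor genes, against 132 to 225 in eutopic uterus at 3 months. It held 130 CPM of 24 skeletal muscle genes. Libraries 2, 3 and 4 held 75700, 24600 and 13300 CPM of those skeletal muscle genes, against 190 to 252 in eutopic uterus. Lesion library 2 at 1 month held 130000 CPM of pancreas and liver genes, against 6.86 to 26.5 in the other lesions of that time. The results below are therefore given with all 16 libraries and, where it matters, without these 3 libraries (1 and 2 at 3 months, 2 at 1 month), which leaves 3 lesions at 1 month and 2 at 3 months. In such bulk tissue, fewer cells of a type and less RNA per cell cannot be told apart.

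Endometriosis is the growth of endometrium, the glandular lining of the uterus with its stroma, outside the uterus. In early pregnancy ovarian progesterone acts through its receptor, encoded by Pgr, to halt division of the uterine epithelium, to induce signals such as Ihh in epithelium, and to drive Hand2 in stroma. Glands, which depend on Foxa2, secrete the Lif needed for implantation. Lesions are fed by new vessels, invaded by leukocytes and fibrotic, and reduced response to progesterone is a known feature of the disease.

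More genes differed between lesions and uterus at 3 months than at 1 month by edgeR, but few passed the test of the change itself. With its quasi-likelihood test and Benjamini-Hochberg adjustment over 21627 genes, called here at an adjusted p under 0.05, 3049 genes (14.1%) differed between lesions and uterus at 1 month and 7763 (35.9%) at 3 months. The order of these counts turned with limma voom, which called 10030 at 1 month and 8272 at 3 months with sample weights, and 7485 and 3169 with group weights. Lesion and eutopic groups without overlap were also more frequent at 1 month (32.3% of genes) than at 3 months (24.3%). The change between the times was called for 10 genes (0.0462%), 3 higher (0.0139%) and 7 lower (0.0324%), with a smallest adjusted p of 0.0341. At an unadjusted p under 0.05 it stood at 2613 genes (12.1%), 1397 higher (6.46%) and 1216 lower (5.62%). Of 2502 genes called at both times, 82.1% of the calls at 1 month and 32.2% of those at 3 months, 1520 were higher in lesions at both, 981 lower at both and 1 opposite. The difference was larger in size at 3 months for 1783 of these and smaller for 718. Across all genes tested the differences at both times, which share no library, correlated at r = 0.747, a description since genes are not independent and lesion libraries of a time share other tissue.

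**Figure D1:**
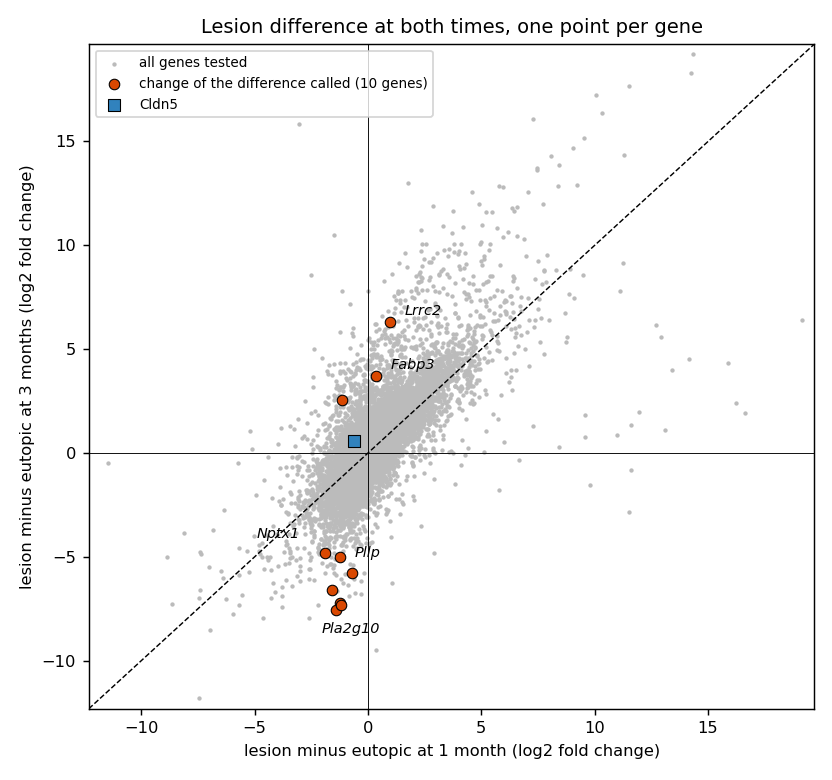
Each point is 1 gene, with its lesion minus eutopic log2 fold change at 1 month on the horizontal axis and at 3 months on the vertical axis; the dashed line marks equal differences. The 10 called genes (orange) lie off the line, 7 of them below 0 at both times, and Cldn5 (square) is below 0 at 1 month and above 0 at 3 months.

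Among genes picked by the test of the change, the lesion side moved more than the eutopic side. Of the 2613 genes with an unadjusted p under 0.05, 2539 (97.2%) moved more in size in lesions than in eutopic uterus. Over the 2613 genes the median absolute log2 change was 1.12 in lesions and 0.136 in eutopic uterus. These genes were picked by the change itself, and lesion libraries spread more, so a larger move in lesions is partly built into the choice. The figures do not show that lesions moved more over all genes. Lesions at 3 against 1 month gave 1247 calls (5.77%), 682 higher and 565 lower. Eutopic uterus gave 3 (0.0139%). At an unadjusted p under 0.05 it had 229 genes (1.06%), fewer than the 1081 expected by chance. The test, whose spread was pooled over lesions and uterus, was thus conservative for the uterus. For lesions, whose libraries spread more, the same pooling may make it too lenient. The counts of both tissues are therefore not of equal sensitivity. DESeq2 gave 2540 calls in lesions and 11 in eutopic uterus, and voom with group weights 136 and 6. By the lesion difference at each time, 8 of the 10 called genes opened, meaning that the difference was called at 3 months only, and 2, Nptx1 and Psg25, grew from a called difference at 1 month. None closed, shrank or turned in this fit.

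The 7 genes called lower were all at their lowest in lesions at 3 months. Nptx1 encodes neuronal pentraxin, a secreted protein known from synapses. It stood at 41.2, 28.3, 27.2 and 31.6 CPM in eutopic uterus at 1 month and at 13.5, 4.61, 7.83 and 8.45 in the lesions. At 3 months it stood at 54.6, 42.1, 40.7 and 37.1 CPM in eutopic uterus and at 1.47, 1.88, 1.86 and 1.04 in lesions. Lesions were below uterus at both times without overlap, and all lesions at 3 months were below all at 1 month. Of all genes 9.39% had lesion groups of both times without overlap. The log2 lesion difference went from -1.90 to -4.80, a change of -2.91 ± 0.40 (SE, adjusted p = 0.0341).

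Pllp encodes plasmolipin, a membrane protein of epithelium and myelin. In lesions it stood at 40.4, 12.6, 29.8 and 19.4 CPM at 1 month and at 1.2, 1.69, 2.99 and 0.829 at 3 months. In eutopic uterus it ran from 35.8 to 84.4 CPM at 1 month and from 38.2 to 68.8 at 3 months. The lowest eutopic library at 1 month lay below the highest lesion, whereas no lesion at 3 months came near the uterus. The change was -3.81 ± 0.58 (SE, adjusted p = 0.0410), from a difference of -1.23 that was not called (adjusted p = 0.0529) to -5.03.

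Pla2g10 encodes a secreted phospholipase A2, which frees arachidonic acid for prostaglandin synthesis. It stood at 18.0, 2.89, 19.1 and 13.7 CPM in lesions at 1 month and at 0.147, 0, 0.391 and 0.0622 at 3 months. Eutopic uterus held 26.7 to 48.9 CPM at 1 month and 16.5 to 35.4 at 3 months. Lesions at 1 month were below all eutopic libraries of that time, and at 3 months all 4 lesions together held 31 counts against 6204 in the 4 eutopic libraries. The change was -6.14 ± 0.93 (SE, adjusted p = 0.0410), from -1.41 to -7.56.

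The upstream 250 bases of Pla2g10, Pllp and Lrrc2, a called gene of the opposite direction described below, are shown so that the start regions of falling and rising genes can be compared. They come from RefSeq on GRCm38.p6, are written 5′ to 3′ on the gene's strand, and end at the base before the annotated start. Capitals mark matches, on either strand, to the estrogen receptor half-site GGTCA in all 3, to the GC box GGGCGG in the first and second and to the TATA box TATAAA in the last.
Pla2g10 (chr16:13730485-13730734, minus strand): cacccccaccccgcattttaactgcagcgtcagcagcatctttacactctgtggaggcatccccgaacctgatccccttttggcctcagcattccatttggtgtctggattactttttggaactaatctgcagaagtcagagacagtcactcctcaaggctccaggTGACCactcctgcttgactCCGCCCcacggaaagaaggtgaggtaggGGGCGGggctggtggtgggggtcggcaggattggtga
Pllp (chr8:94696243-94696492, minus strand): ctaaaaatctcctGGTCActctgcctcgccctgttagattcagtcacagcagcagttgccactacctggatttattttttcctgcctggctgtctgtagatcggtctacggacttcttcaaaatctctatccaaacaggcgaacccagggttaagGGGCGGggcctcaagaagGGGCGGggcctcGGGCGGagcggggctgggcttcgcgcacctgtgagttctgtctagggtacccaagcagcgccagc
Lrrc2 (chr9:110951295-110951544, plus strand): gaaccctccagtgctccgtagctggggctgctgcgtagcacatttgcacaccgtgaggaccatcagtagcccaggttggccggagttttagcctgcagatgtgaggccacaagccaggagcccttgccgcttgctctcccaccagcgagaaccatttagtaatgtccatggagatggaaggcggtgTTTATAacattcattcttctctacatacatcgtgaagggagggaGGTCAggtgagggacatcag
Pla2g10 held 2 matches to the GC box and Pllp 3, and this motif was chosen after the sequences were seen. It occurs in 32.7% of 32851 such windows, GGTCA in 35.2% and TATAAA in 12.4%. The progesterone and glucocorticoid receptor half-site TGTTCT (16.1% of windows), the forkhead site TGTTTAC (3.17%) and the muscle E-box CAGCTG (13%) did not occur in these 3 windows. The Fabp3 window held none of the 6 motifs and Psg25 held CAGCTG. Of the 6 called genes with a proper gene name, 5 had a window in the table.

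The remaining genes called lower were scarce everywhere. Psg25, of the pregnancy-specific glycoprotein family, had 54 counts over the 4 lesions at 1 month and 1 at 3 months, against 180 and 151 in eutopic uterus. Its ratio of lesions at 3 months to those at 1 month was 0.0186, with an exact 95% interval of 0.000461 to 0.108 that covers counting error only. The unitary pseudogene Gm30694 (118 and 1 counts in lesions, ratio 0.00849, 0.000213 to 0.0482) and the long noncoding RNAs Gm26744 (131 and 2, ratio 0.0153, 0.00183 to 0.0564) and 2210404E10Rik (44 and 1, ratio 0.0228, 0.000564 to 0.134) shared that pattern. Their fitted fold changes rest on such counts. Ano2, a calcium-activated chloride channel, stood just past the threshold (-5.58 ± 0.93, adjusted p = 0.0509), with 28.1, 4.38, 15.6 and 15.9 CPM in lesions at 1 month and 0.124 to 0.742 at 3 months. It was called without the 3 libraries (-5.40, adjusted p = 0.00703).

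The 3 genes called higher had a called lesion difference only at 3 months. Fabp3 encodes the fatty acid-binding protein of heart and skeletal muscle. It stood at 1.71, 2.92, 1.51 and 1.44 CPM in lesions at 1 month, at 1.18 to 1.72 and 1.19 to 1.67 in eutopic uterus, and at 17.1, 27.5, 19.4 and 9.27 in lesions at 3 months. Each lesion at 3 months exceeded every other library, and the other 3 groups overlapped. The lesion difference went from 0.35 to 3.68, a change of 3.34 ± 0.44 (SE, adjusted p = 0.0341).

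Lrrc2, a leucine-rich repeat protein known from heart and skeletal muscle, stood at 0.598, 2.11, 0.378 and 0.446 CPM in lesions at 1 month and at 28.9, 62.0, 19.7 and 10.8 at 3 months. Eutopic levels were 0.312 to 0.606 CPM over both times. The change was 5.31 ± 0.83 (SE, adjusted p = 0.0410), from 0.99 to 6.30. For both genes the highest library was lesion 2 at 3 months, which also had the most skeletal muscle transcripts. Lesion 1 at 3 months, with fewer skeletal muscle transcripts (130 CPM) than any eutopic library, nonetheless held 17.1 CPM of Fabp3 and 28.9 of Lrrc2. It also held the ovarian transcripts, whose part in these levels was not tested.

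The long noncoding RNA Gm15958 stood at 0.072 to 0.235 CPM in lesions at 1 month, below the 0.320 to 0.398 of eutopic uterus, and at 2, 0.985, 0.547 and 0.871 in lesions at 3 months, above the 0.114 to 0.227 of eutopic uterus. Its change was 3.68 ± 0.60 (SE, adjusted p = 0.0458), from -1.15, not called, to 2.53. Among the next by p of the protein-coding genes with a mean log2 CPM of at least 1 and a higher change were Ccbe1, which activates the lymphatic growth factor VEGF-C (2.32, adjusted p = 0.0627), and Mlf1 (4.05, adjusted p = 0.0948). Neither passed with all libraries, and both passed without the 3 libraries (1.79 and 3.05). Ccbe1 stood at 13.5 to 22.1 CPM in lesions at 1 month and at 124, 86.9, 47.3 and 54.7 at 3 months, with 12.7 to 27.8 in eutopic uterus.

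**Figure D2:**
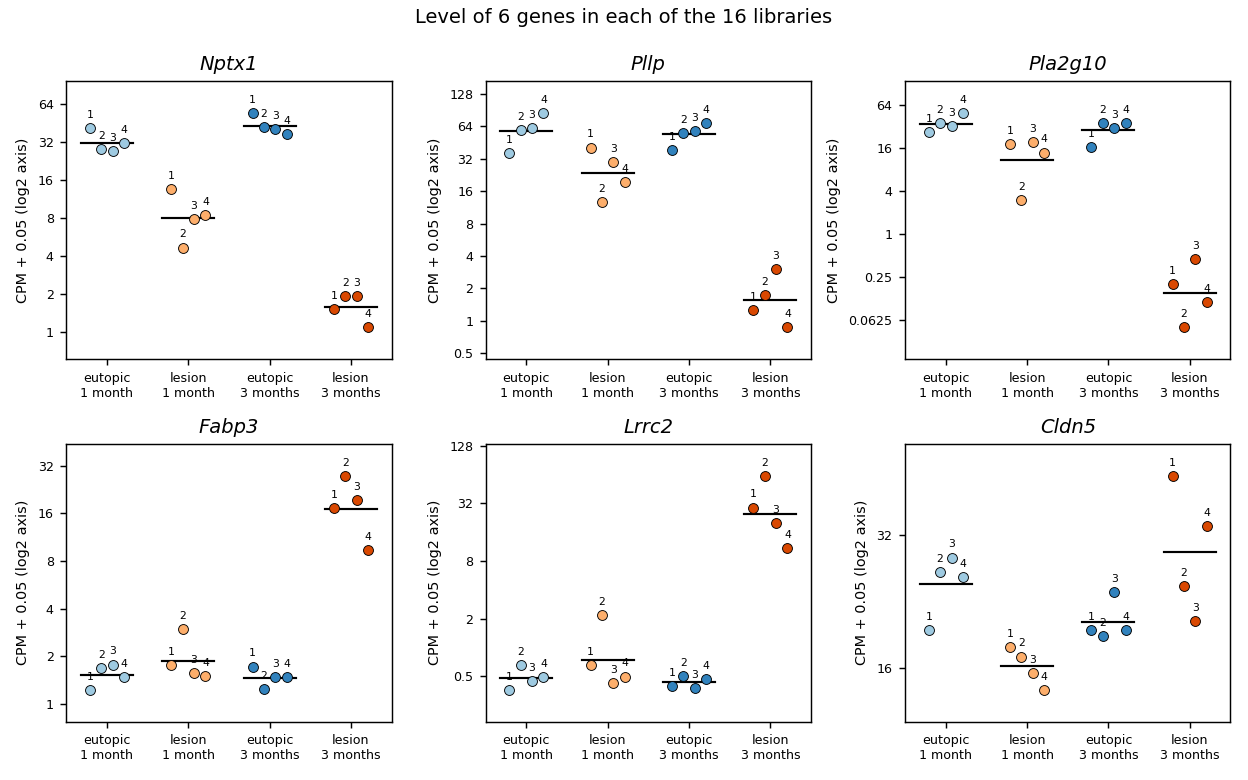
Level of 5 called genes and Cldn5 in each library, as CPM + 0.05 on a log2 axis; points are libraries with their number, bars are geometric means of 4. Nptx1, Pllp and Pla2g10 are lowest, and Fabp3 and Lrrc2 highest, in all 4 lesions at 3 months, and for Cldn5 all lesions lie below uterus at 1 month and 3 of 4 above it at 3 months.

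The single gene with called lesion differences of opposite sign was Cldn5, a claudin that seals junctions between endothelial cells. It stood at 17.8, 16.9, 15.5 and 14.2 CPM in lesions and at 19.4, 26.3, 28.4 and 25.6 in eutopic uterus at 1 month. At 3 months it stood at 43.6, 24.5, 20.4 and 33.5 CPM in lesions and at 19.4, 18.8, 23.7 and 19.4 in eutopic uterus. Lesions lay below uterus without overlap at 1 month, while at 3 months lesion 3 fell within the eutopic range. The difference went from -0.63 (adjusted p = 0.0496) to 0.59 (adjusted p = 0.0350). The change of 1.22 ± 0.28 was not called (adjusted p = 0.144). Without the 3 libraries the change was called (1.07, adjusted p = 0.0482), but the difference at 3 months no longer was (0.41, adjusted p = 0.114).

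Esm1, which encodes endocan of sprouting endothelium, moved towards closing. It stood at 16.7, 7.06, 10.9 and 8.38 CPM in lesions at 1 month against 0.655 to 1.45 in eutopic uterus, and at 3.07, 2.86, 3.95 and 2.80 against 6.23, 0.70, 2.15 and 2.55 at 3 months. All lesions exceeded the uterus at 1 month, and the groups overlapped at 3 months. The difference was called at 1 month (3.25) and not at 3 months (0.12), and the change of -3.13 ± 0.70 was not called (adjusted p = 0.126). Of 20 blood vessel genes, 2 had a higher and 1 a lower change at an unadjusted p under 0.05. Over all genes these shares were 6.46% and 5.62%.

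Without the 3 libraries, 709 of 22614 genes were called for the change (3.14%), 365 higher (1.61%) and 344 lower (1.52%), among them all 10 called with every library. By class 475 opened, 149 grew, 62 turned, 23 closed and 0 shrank. Of the 62 that turned, 34 moved upward, and those with the smallest p among them were genes of skeletal muscle such as Myo18b, an unconventional myosin (from -0.65 to 5.19), and Tnni2, a fast-muscle troponin (from -0.93 to 5.05). These names, like the next, were chosen after their values were seen. Lesions 3 and 4 at 3 months, the pair left, held 24600 and 13300 CPM of skeletal muscle genes. Among the 28 that turned downward were genes of mitosis, Ccnb1 (from 0.64 to -0.68), Bub1 (from 0.71 to -0.66), Prc1 (from 0.69 to -0.65) and Cenpf (from 0.78 to -0.60), and of fatty acid synthesis, Acaca (from 0.82 to -0.87) and Elovl6 (from 0.65 to -0.63). Fasn, fatty acid synthase, closed (from 1.58 to -0.46), as did the mitotic genes Hmmr, Anln and Aspm.

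Cell cycle genes stood mostly above the uterus in lesions at 1 month and below it at 3 months. Of 24 genes of the cell cycle and DNA replication, none was called for the change with all libraries, yet all 24 values were below 0. Of these 23 had an unadjusted p under 0.05, as 5.62% of all genes did in that direction. The median change was -1.16 against 0.07 over all genes tested. At 1 month 4 members were called higher in lesions and 0 lower (7.99% and 6.11% of all genes), and at 3 months 0 higher and 9 lower (20.6% and 15.3%). Between the lesion groups 12 were called lower at 3 months and 0 higher (2.61% and 3.15% of all genes). The lesion groups did not overlap, with 3 months below, for 17 of the 24, as for 5.29% of all genes.

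Summed over the list, lesions at 1 month held 1200, 1260, 1820 and 1300 CPM against 896 to 1240 in eutopic uterus, and lesions at 3 months held 845, 445, 840 and 860 against 997 to 1200. All lesions at 3 months were below every other library, lesion 2 furthest. Mcm5, a subunit of the replicative helicase, stood at 52.4, 63.0, 88.5 and 63.4 CPM in lesions and 33.8 to 45 in uterus at 1 month, then at 29.7, 19.1, 35.2 and 36.5 in lesions and 34.3 to 47.9 in uterus. Its difference went from 0.75 (called) to -0.51 (not called), with a change of -1.26 ± 0.29 (adjusted p = 0.133). Mki67, the proliferation antigen, stood at 175, 172, 251 and 177 CPM in lesions at 1 month and 115, 49.8, 108 and 121 at 3 months, with 87.1 to 163 and 115 to 163 in eutopic uterus. Lesions were thus the highest group at 1 month and mostly the lowest at 3 months, and the change was -1.27 (adjusted p = 0.203).

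Tyms, thymidylate synthase, did not differ at 1 month (-0.10) and was called lower at 3 months (-1.41), with 15.2, 8.4, 19.5 and 18.7 CPM against 35.6 to 48.7. Aurkb, the kinase of the chromosomal passenger complex, went from 0.58 to -0.81 (change -1.39, adjusted p = 0.151). E2f1, a transcription factor of S phase entry, was the only member without a p under 0.05 (-0.33). Leaving out each lesion library in turn moved the list median between -1.27 and -0.88. Leaving out the 3 libraries, 6 of 24 were called lower and 0 higher (1.52% and 1.61% of all genes in that fit), with a median of -0.96. Ccnb1, Bub1 and Tyms were among the 6. The list holds no cell type markers, so which cells held these transcripts was not tested.

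**Figure D3:**
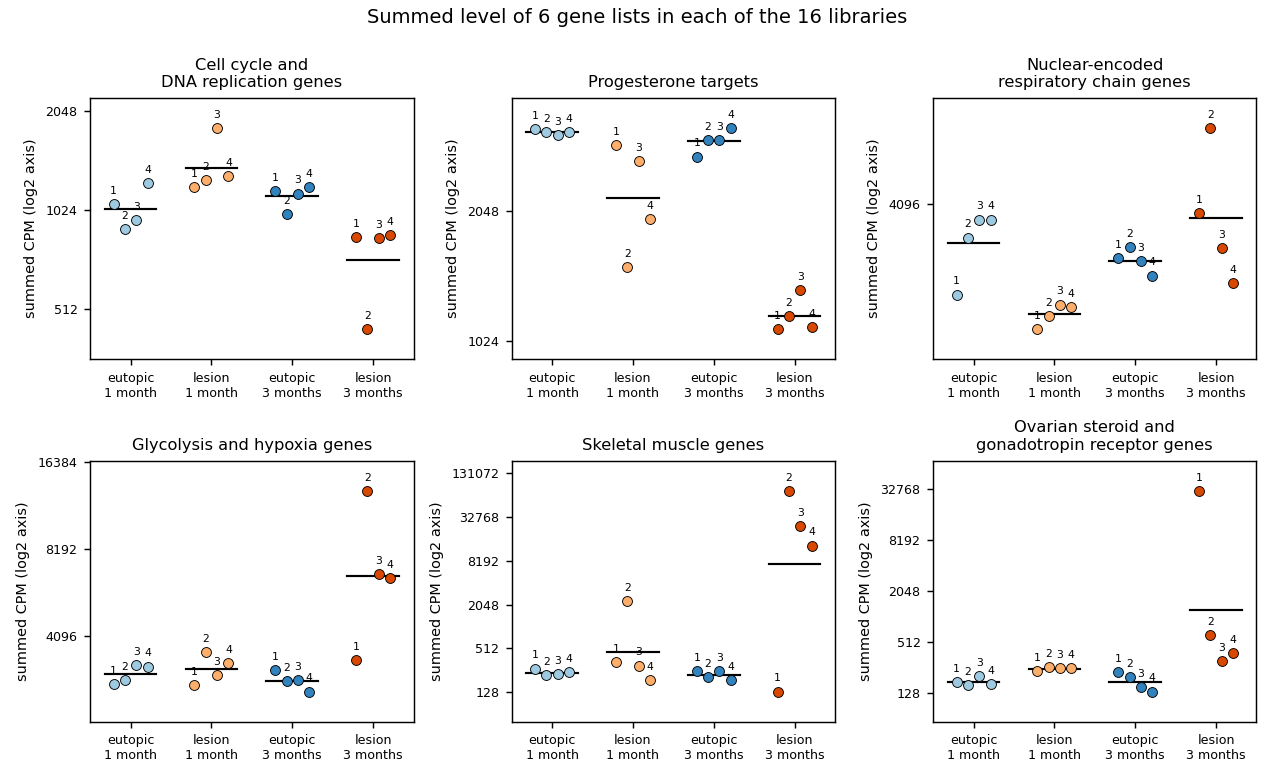
Summed CPM of 6 gene lists in each library on log2 axes; points are libraries with their number and bars are geometric means of 4. Cell cycle sums are lowest in the 4 lesions at 3 months (445 to 860), progesterone target sums likewise (1090 to 1340), and in that group skeletal muscle sums run from 130 to 75700 and ovarian sums from 304 to 31300.

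Targets of progesterone had a median below that of the uterus in lesions at 1 month and a lower one at 3 months, with no member called for the change. Of 23 target genes measured, 1 was called higher and 5 lower at 1 month (7.99% and 6.11% of all genes), and 3 higher and 13 lower at 3 months (20.6% and 15.3%), with medians of -0.77 and -1.93. For the change itself 1 higher and 11 lower had an unadjusted p under 0.05 (6.46% and 5.62% of all genes), and the median was -1.16. The summed level was 2910, 1520, 2670 and 1960 CPM in lesions at 1 month and 1090, 1170, 1340 and 1100 at 3 months, against 2740 to 3190 in eutopic uterus over both times. Lesions at both times spread below the uterus, apart from lesion 1 at 1 month within its range, and the lesion groups did not overlap. For 10 of the 23 genes lesions at 3 months were below all lesions at 1 month (5.29% of all genes). Without the 3 libraries 7 were called lower and 0 higher (1.52% and 1.61% of all genes in that fit), with a median of -1.49.

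Hsd11b2, which inactivates glucocorticoid, stood at 98.6, 39.2, 104 and 85.0 CPM in lesions at 1 month and at 16.2, 3.05, 29.2 and 8.23 at 3 months. Eutopic uterus held 239 to 306 and 194 to 255 CPM. The ranges of lesions at 3 months, lesions at 1 month and eutopic uterus over both times did not overlap. The lesion difference went from -1.68 to -4.06, called at both times. Its change was -2.38 ± 0.67 (adjusted p = 0.195), and -2.21 without the 3 libraries (adjusted p = 0.0188). Lrp2, the endocytic receptor megalin, stood at 884, 224, 726 and 364 CPM in lesions at 1 month, across the eutopic range of 372 to 645, and at 2.56, 16.8, 80.0 and 5.04 at 3 months against 441 to 551. The change was -4.44 ± 1.12 (adjusted p = 0.155; without the 3 libraries -3.99, adjusted p = 0.0393).

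Members of Hedgehog signalling, by which Ihh of the epithelium acts on stroma, went the same way. Gli1, the pathway's transcription factor and target, stood at 148, 79.3, 154 and 85.2 CPM in lesions at 1 month and at 21.6, 4.58, 59.4 and 27.9 at 3 months, with 113 to 192 in eutopic uterus over both times (change -2.16, adjusted p = 0.247). Lesions of both times did not overlap. Without the 3 libraries, Gli1 and Ptch1, a receptor of the pathway, were called (-1.68 and -1.60, adjusted p = 0.0431 and 0.0172).

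Ihh itself was uneven. It stood at 29.8, 13.9, 30.4 and 17.3 CPM in lesions at 1 month and at 34.6, 0.55, 8.28 and 4.60 at 3 months, with 33.9 to 50.2 in eutopic uterus. Lesion 1 at 3 months, the library with ovarian transcripts, was the highest of all 8 lesions. The change was -1 ± 1.01 (adjusted p = 0.777) with all libraries and -2.07 (adjusted p = 0.00584) without the 3. Gpx3, which encodes a secreted glutathione peroxidase, went the other way, at 182 to 334 CPM in lesions at 1 month and at 389, 855, 320 and 571 at 3 months (change 1.34, adjusted p = 0.194).

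Both steroid receptor genes and Hand2 were lowest in lesions 1 and 2 at 3 months. Pgr, the progesterone receptor gene, stood at 218, 140, 206 and 161 CPM in lesions at 1 month, near the eutopic 146 to 273, and at 6.97, 14.2, 158 and 59.7 at 3 months against 189 to 269. The 2 lowest were lesions 1 and 2, which nearly lacked Hoxa10 too. The difference was -0.01 at 1 month and -1.85 at 3 months (called), and the change of -1.84 ± 0.92 was not called (adjusted p = 0.447; without the 3 libraries -1.08, adjusted p = 0.211). Esr1, the estrogen receptor gene, stood at 434, 248, 419 and 317 CPM and then at 132, 100, 268 and 157, with 363 to 649 in eutopic uterus. Its change was -1.17 ± 0.40 (adjusted p = 0.267).

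Hand2 stood at 54.1, 33.9, 75.1 and 42.7 CPM in lesions at 1 month and at 0.827, 7.95, 21.6 and 15.1 at 3 months, with 70.9 to 100 in eutopic uterus. Lesions of both times did not overlap. The change was -2.01 ± 0.80 (adjusted p = 0.344) with all libraries and -1.47 (adjusted p = 0.00985) without the 3. Hoxa10 (-1.79 ± 1.26) and Hoxa11 (-1.76 ± 1.25), which position the uterus along the tract, had adjusted p of 0.629 and 0.631. Cyp26a1, a retinoic acid-degrading enzyme of luminal epithelium, had a change of -2.94 ± 1.12 (adjusted p = 0.322) at levels of at most 11.7 CPM.

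Other members of the fixed panel showed no called change. Wnt4, a signal of the decidua, stood above uterus at both times, at 34.7 to 52.6 CPM in lesions at 1 month and 127, 49.8, 43.2 and 48.7 at 3 months against at most 8.29 in eutopic uterus (differences 3.06 and 4.04, both called; change 0.98 ± 0.50, adjusted p = 0.461). Bmp2, another decidual signal, had a change of 0.77 ± 0.56, with lesion 1 at 3 months at 41.5 CPM and the other lesions at 8.70 to 11.4. Foxa2 was below uterus at both times (differences -2.80 and -3.37, both called; change -0.57 ± 1.07). Lif (-0.12 ± 0.89) and the estrogen-driven Ltf (-0.99 ± 1.71) were spread widely within groups.

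Uterine epithelium and stroma lists shifted less evenly. Of 16 gland genes 1 was called higher and 3 lower at 1 month (7.99% and 6.11% of all genes), and 1 higher and 11 lower at 3 months (20.6% and 15.3%), with medians of -0.83 and -3.26. The change had an unadjusted p under 0.05 for 1 higher and 4 lower (6.46% and 5.62% of all genes). Without the 3 libraries its median went from -0.90 to -0.10, and 1 of 16 was called lower (1.52% of all genes in that fit). Of 21 luminal epithelium genes none had an unadjusted p under 0.05 for the change, whose median was -0.69 with all libraries and 0.14 without the 3. The luminal sum was 464 and 220 CPM in lesions 1 and 2 at 3 months and 2040 and 1330 in lesions 3 and 4, the latter near the 1590 to 1760 of lesions at 1 month. Of 17 endometrial stroma genes 4 had a lower change at an unadjusted p under 0.05 and 0 a higher (median -0.56). In the fit without the 3 libraries 4 were called lower and 0 higher (1.52% and 1.61% of all genes).

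Positional genes did not all go the same way. Of 22 Müllerian and Hox factors, 0 were called higher and 2 lower at 1 month (7.99% and 6.11% of all genes), and 3 higher and 13 lower at 3 months (20.6% and 15.3%). Hoxc8, normally of more anterior segments than the uterine Hox genes, stood at 3.01, 2.84, 1.12 and 2.97 CPM in lesions at 1 month and at 22.3, 10.4, 12.3 and 15.1 at 3 months, with 0.675 to 2.87 in eutopic uterus. All lesions at 3 months exceeded all other libraries (change 2.67 ± 0.60, adjusted p = 0.126; without the 3 libraries 2.61, adjusted p = 0.0478). Hoxc9, its neighbour in the cluster, had a change of 3.15 (adjusted p = 0.251). Hoxd9 stood at 57.1, 33.4, 60.3 and 38.7 CPM in lesions at 1 month and at 24.5, 11.7, 33.1 and 23.1 at 3 months against 73.6 to 91.2 in eutopic uterus (change -1.12, adjusted p = 0.235).

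Among 21 genes of prostaglandin and glucocorticoid metabolism Pla2g10 was called. At an unadjusted p under 0.05, 5 had a lower change and none a higher (5.62% and 6.46% of all genes). Pla2g4a, the cytosolic phospholipase A2, stood at 147, 79.0, 120 and 116 CPM in lesions at 1 month, near the eutopic 106 to 154, and at 22.0, 37.3, 57.9 and 58.7 at 3 months against 104 to 147. Lesions were below uterus without overlap only at 3 months (change -1.33 ± 0.38, adjusted p = 0.203; without the 3 libraries -1.06, adjusted p = 0.0351). Hdc, which makes histamine, stood at 375, 152, 404 and 256 CPM in lesions at 1 month and at 60.4, 25.4, 83.6 and 37.9 at 3 months, with 294 to 624 in eutopic uterus (change -2.32 ± 0.52, adjusted p = 0.126; without the 3 libraries -2.30, adjusted p = 0.0140).

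**Figure D4:**
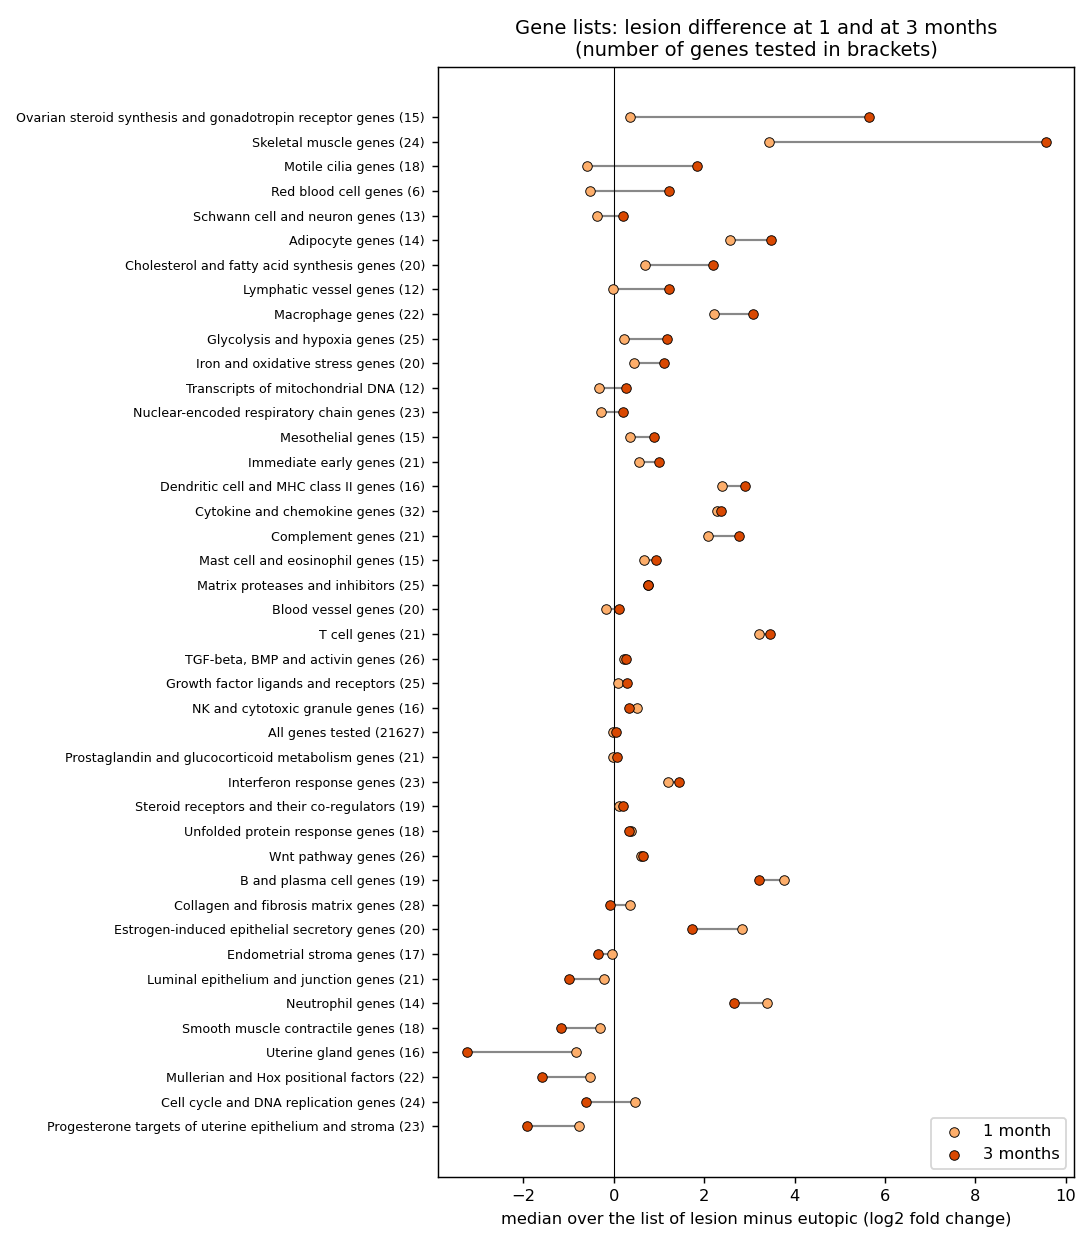
Median lesion minus eutopic log2 fold change of 41 gene lists and all genes tested at 1 month (light) and 3 months (dark), ordered by the median change; the pancreas and liver list, whose median went from 11.9 to 1.9, is left out for scale. The cell cycle list moves from 0.47 to -0.62 and the nuclear respiratory list from -0.29 to 0.20, while T cell genes stay above 3 at both times.

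Genes of energy metabolism pointed upward. Of 23 nuclear-encoded subunits of the respiratory chain, all had a change above 0, and 16 had an unadjusted p under 0.05. Over all genes 6.46% were higher at that threshold. None of the 23 was called, and the median was 0.51. At 1 month 0 were called higher and 3 lower in lesions (7.99% and 6.11% of all genes), and at 3 months 6 higher and 0 lower (20.6% and 15.3%). The sum was 2840 to 3050 CPM in lesions at 1 month, below the 3140 to 3910 of eutopic uterus, and 3990, 5110, 3600 and 3250 at 3 months against 3320 to 3610. Lesions were below uterus at 1 month, and at 3 months 2 were above its range, 1 within and 1 below it. Sdhb, a subunit of complex II, stood at 65.5 to 79.2 CPM in lesions at 1 month and at 105, 140, 95.2 and 97.8 at 3 months against 69.6 to 78.7 (change 0.71 ± 0.18, adjusted p = 0.156). Cox7a1, the muscle isoform of a cytochrome oxidase subunit, stood at 0.198 to 1.02 CPM and then at 4.36, 24.2, 8.44 and 5.29 (change 4.44, adjusted p = 0.0702; without the 3 libraries 4.39, adjusted p = 0.000388). In the fit without those 3 libraries, 3 of the 23 were called higher, Cox7a1, Cox6a2 and Cox8b, all muscle isoforms. Over all genes 1.61% were called higher in that fit. At 3 months it kept only lesions rich in skeletal muscle transcripts (24600 and 13300 CPM) and dropped lesion 1 (130 CPM). Calls of muscle isoforms are therefore partly built into that choice of libraries.

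For glycolysis and hypoxia, 25 rows (24 genes, Aldoa on 2 identifiers) gave 12 higher and 1 lower change at an unadjusted p under 0.05. Over all genes these shares were 6.46% and 5.62%, and the list median was 0.71. Calls were 3 higher and 1 lower at 1 month (7.99% and 6.11% of all genes). At 3 months they were 19 and 1 (20.6% and 15.3%). The sum was 2760 to 3590 CPM in lesions at 1 month and 3370, 13000, 6690 and 6470 at 3 months. The 3 highest were the libraries with skeletal muscle transcripts, and lesion 1 lay within the range of 1 month. Pfkm, the muscle phosphofructokinase, had a change of 3.29 (adjusted p = 0.115) and Gapdh one of 1.33 (adjusted p = 0.207). The lower member, Slc2a3, a glucose transporter, stood at 157, 55.0, 138 and 75.9 CPM in lesions at 1 month and at 10.3, 20.7, 33.7 and 27.8 at 3 months against 261 to 404 in eutopic uterus (change -1.93, adjusted p = 0.153; without the 3 libraries -1.73, adjusted p = 0.00943). The part of muscle tissue in these changes was not tested.

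Most T cell and macrophage genes were called higher in lesions than in uterus at both times, and none was called for the change with all libraries. Over all genes 7.99% were called higher at 1 month and 20.6% at 3 months. Of 21 T cell genes 17 were called higher in lesions at 1 month and 20 at 3 months, with medians of 3.22 and 3.46, and none had an unadjusted p under 0.05 for the change. Of 22 macrophage genes 18 and 20 were called higher, with medians of 2.21 and 3.07 and none at an unadjusted p under 0.05 for the change. The spread between lesions was wide: lesion 1 at 3 months held 25.3 CPM of T cell and 431 of macrophage genes, no more than any eutopic library of that time, and the others held 528 to 1380 and 6030 to 13400. B and plasma cell genes had 12 higher calls at each time out of 19. Fewer calls fell in 2 other lists. Of 16 NK and cytotoxic granule genes 1 and 2 were called higher, with medians of 0.522 and 0.345, and of 15 mast cell and eosinophil genes 0 and 1, with 1 called lower at 3 months. Without the 3 libraries 1 macrophage gene, Lgals3, was called higher for the change (2.12, adjusted p = 0.0470) and no T or B cell gene was. Over all genes 1.61% were called higher in that fit. Of the mast cell and eosinophil list, Kit, a receptor of mast cells, was then called higher (1.05, adjusted p = 0.0176) and Hdc lower, as given above.

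Lymphatic vessel genes pointed upward. Of 12, 3 had a higher change at an unadjusted p under 0.05 and 0 a lower (6.46% and 5.62% of all genes). None was called, and the median was 0.87. For 5 of 12 all lesions at 3 months were above all at 1 month (4.09% of all genes). Flt4, the receptor for VEGF-C, stood at 23.6, 27.3, 31.1 and 12.8 CPM in lesions at 1 month and at 60.9, 66.0, 38.9 and 73.5 at 3 months, with 22.8 to 36.2 in eutopic uterus over both times. All lesions at 3 months exceeded the other 12 libraries (change 1.2 ± 0.36, adjusted p = 0.218; without the 3 libraries 1.19, adjusted p = 0.154). Reln, a secreted glycoprotein of lymphatic endothelium, behaved alike, at 4.35 to 14.0 and then 33.5, 52.4, 25.9 and 42.3 CPM (change 1.73, adjusted p = 0.175).

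Of 28 collagen and fibrosis matrix genes 2 had a higher and 5 a lower change at an unadjusted p under 0.05. Over all genes these shares were 6.46% and 5.62%. The list median was -0.50. Comp, a matrix protein of cartilage and scar, stood at 0.428 to 1.33 CPM in lesions at 1 month and at 5.72, 9.09, 2.34 and 8.38 at 3 months, above every other library (change 2.92 ± 0.65, adjusted p = 0.126; without the 3 libraries 3.05, adjusted p = 0.0277). Grem1, which binds and blocks BMPs, stood at 3.92, 11, 1.84 and 1.85 CPM and then at 31.7, 26.0, 22.0 and 93.2, with 0.247 to 1.04 in eutopic uterus. Lesions were above uterus at both times and did not overlap between times (differences 2.62 and 6.90, both called; change 4.28 ± 0.87, adjusted p = 0.102; without the 3 libraries 5.58, adjusted p = 0.000886).

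Lists of other tissues differed in how far they rested on 1 library. The 24 skeletal muscle genes were high in 3 of 4 lesions at 3 months, and 16 had a higher change at an unadjusted p under 0.05 (6.46% of all genes). Their median of 5.40 stayed between 4.22 and 8.46 leaving out each lesion library in turn. Without the 3 libraries 18 were called higher (1.61% of all genes in that fit). That fit drops lesion 1 at 3 months (summed 130 CPM) and lesion 2 at 1 month (2290 CPM). It keeps only muscle-rich lesions at 3 months (24600 and 13300 CPM). Its count therefore does not test whether the list rests on 1 library. All 15 ovarian genes tested had a change above 0, 10 of them at an unadjusted p under 0.05 (median 5.41). Without lesion 1 at 3 months the median was 0.73. The 18 motile cilia genes had a median of 1.89, and of -0.43 without that library. Of 20 genes of cholesterol and fatty acid synthesis 16 had a change above 0, 5 of them at an unadjusted p under 0.05 (median 0.95, and -0.03 without lesion 1 at 3 months). In the fit without the 3 libraries 0 of the 20 were called higher and 3 lower (1.61% and 1.52% of all genes).

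A few genes differed between the times on the eutopic side. Ifi202b, an interferon-induced DNA sensor, stood at 10 to 11.7 CPM in eutopic uterus at 1 month and at 0.0379, 0.0412, 0.019 and 0 at 3 months. In lesions it stood at 15.2, 21, 11.7 and 23.4 CPM at 1 month and at 0.221, 0.641, 10.7 and 21.4 at 3 months. Eutopic libraries thus separated fully by time, as for 1.46% of all genes, and lesions at 3 months split into 2 near the eutopic level and 2 near that of 1 month, the low pair being lesions 1 and 2. The change was 7.61 ± 1.58 (adjusted p = 0.108; without the 3 libraries 8.68, adjusted p = 4.15e-06), and the eutopic arm of -8.72 was not called (adjusted p = 0.059). The 3 libraries left out include lesions 1 and 2 at 3 months, the low pair. The mice were of mixed strain background, and which alleles each library held was not tested. Strain alleles and time thus cannot be told apart for Ifi202b. The 3 genes called between eutopic groups were processed pseudogenes that were higher at 3 months, Gm7809 (3.38), Gm18180 (3.31) and Gm19680 (2.56). They were called higher in lesions too (2.80, 2.03 and 1.59), and the change of the lesion difference was not called (adjusted p from 0.42 to 0.589).

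The 10 calls lay close to the threshold. Leaving out 1 library gave 0 to 353 calls. There were 0 without any 1 of lesions 1, 3 and 4 at 1 month, the 4 eutopic libraries at 1 month, or eutopic libraries 2, 3 and 4 at 3 months. There were 353 without lesion 1 and 278 without lesion 3 at 3 months, and 68 without lesion 2 at 1 month. All 10 genes kept their sign in every setting, and all were called in each of those last 3. Of the 10, 7 were called without eutopic library 1 at 3 months, 3 without lesion 4 and 2 without lesion 2 at 3 months. With all 24 libraries 9 of them were called, with voom 6 under sample weights and 2 under group weights, and without a filter on low counts 6. Without lesions 1 and 2 at 3 months 175 genes were called (0.771%), 137 higher (0.604%) and 38 lower (0.167%). DESeq2 called 525 genes (2.43%), 292 higher (1.35%) and 233 lower (1.08%), including all 10.

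**Figure D5:**
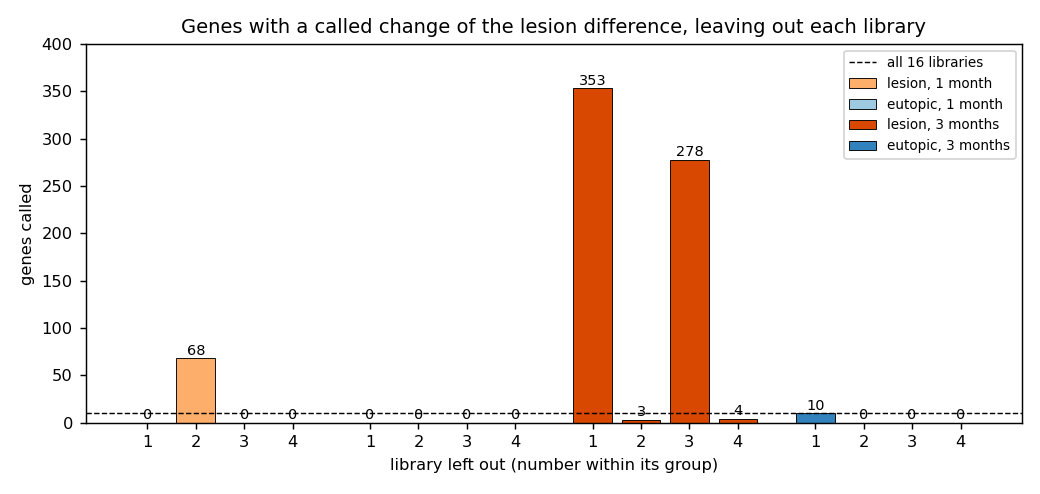
Number of genes called for the change of the lesion difference when each library is left out in turn, with the number from all 16 libraries (10) as a dashed line. The count is highest without lesion 1 (353) or lesion 3 (278) at 3 months and is 0 for 10 of the 16 libraries.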

How the data were processed

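The authors deposited raw counts for 56691 genes in 24 libraries. Per the submitters' processing notes, bcl2fastq 1.9.0, STAR 2.7.9a and edgeR were used with genome build mm39. How reads were assigned to genes, with or without strand and by which annotation, was not stated there. Values of overlapping, antisense or near-identical genes and of pseudogenes are therefore uncertain.

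Counts of 16 libraries, 45100000 to 59100000 per library, were scaled by TMM, filtered with filterByExpr by group and fitted by group means with edgeR 4.0.16 under R 4.3.3. Its quasi-likelihood F-test was adjusted by Benjamini-Hochberg over 21627 genes, with a threshold of 0.05. The change is (lesion minus eutopic at 3 months) minus (lesion minus eutopic at 1 month). Its standard error is the absolute log2 fold change over the square root of F. Levels are CPM on TMM-scaled library sizes, not per length, so they are compared within a gene only. The code was tested on simulated data. Alternatives used DESeq2 1.42.0 and limma 3.58.1. Intervals cover counting error only.

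Genes were named by a rule: a panel of 12, the smallest p with a mean log2 CPM of at least 1, and the leading members of 42 gene lists (855 memberships, 775 distinct genes tested). Members and lists were chosen with earlier results of these data known. Some genes that the rule names are not reported here. Further members were chosen after their values were seen. Promoter windows come from RefSeq on GRCm38.p6 and play no part in any test.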

Additional observations from a re-analysis of the deposited data

Results flagged for a closer look

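A library stood apart from the other 3 of its group, by Dixon's test at the 95% level, in 9 of 120 groups of 4 libraries checked (the named genes and 10 summed lists); chance gives about 5%, so about 1 in 20. Lesion 1 at 3 months was the outlying library for Wnt4 (127 CPM, others 43.2 to 49.8), Bmp2 (41.5, others 8.84 to 11.4), the ovarian sum (31300, others 304 to 619) and the motile cilia sum (436, others 79.3 to 104). Lesion 2 at 3 months was so for Foxa2 (0.114 CPM, others 1.74 to 2.79) and the cell cycle sum (445, others 840 to 860). Lesion 2 at 1 month was so for the pancreas and liver sum (130000 CPM, others 6.86 to 26.5). In eutopic uterus at 1 month, library 1 stood apart for Pgr (273 CPM, others 146 to 160) and library 4 for Ltf (120, others 37 to 41.7).

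The lesion difference itself differed between 1 and 3 months, by the interaction test, for 10 genes. The log2 change was 3.34 for Fabp3, 5.31 for Lrrc2 and 3.68 for Gm15958. It was -2.91 for Nptx1, -3.81 for Pllp and -6.14 for Pla2g10. The fitted values of Psg25 (-5.04), Gm30694 (-5.97), Gm26744 (-6.14) and 2210404E10Rik (-5.07) rest on 1 or 2 counts in lesions at 3 months.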

How the results depend on the processing

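With 10 calls for the change, the alternatives gave 6 without a filter on low counts, 525 with DESeq2, 242 with limma voom and sample weights, 4 with group weights, 171 with all 24 libraries, 175 without lesions 1 and 2 at 3 months and 709 also without lesion 2 at 1 month; DESeq2 size factors gave 10. A replicate block gave 6, 4 higher and 2 lower against 3 and 7, and 3 of the 10 genes were among them. It fitted a common term for libraries of the same number across both times. It therefore did not model pairs of lesion and uterus within a time. Lesion and eutopic libraries of the same number deviated together at r from 7.7e-07 to 0.35. As the lowest was near 0 and the labels tie no libraries to animals, the numbers were not taken to pair them, although 7 of 8 matched their own number best, a hint of pairing from the data. For the lesion difference at 1 month (3049) the settings gave 1940 without a filter, 5084 with DESeq2, 10030 with sample weights, 7485 with group weights, 4607 with all 24 libraries, 7397 without lesions 1 and 2 at 3 months and 5872 without the 3 libraries. At 3 months (7763) sample weights gave 8272 and group weights 3169, fewer than at 1 month in both. Within lesions (1247) DESeq2 gave 2540, sample weights 761, group weights 136, 24 libraries 2435 and without the 3 libraries 2229. Within eutopic uterus (3) DESeq2 gave 11, sample weights 8, group weights 6, the replicate block 1, and both settings without doubtful lesions 6.

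Leaving out 1 library gave 0 to 353 calls for the change, 766 to 6124 at 1 month, 5909 to 10320 at 3 months, 161 to 3075 within lesions and 1 to 6 within eutopic uterus. Of 102 named genes 94 kept their sign in all 25 settings. Lif turned to 1.15 with sample weights, 0.57 without lesions 1 and 2 at 3 months, 0.62 without the 3 libraries, and ran from -0.53 to 0.39 leaving out 1 library. Foxa2 turned to 0.40 with sample weights, 1.19 without the 3 libraries and from -0.91 to 0.79 leaving out 1 library (highest without lesion 2 at 1 month). Ltf turned to 0.15 without the 3 libraries. Bmp2 turned to -0.0877 with sample weights, -0.00122 without lesions 1 and 2 at 3 months, -0.0453 without the 3, and from -0.0805 to 1.005 leaving out 1 library (lowest without lesion 1 at 3 months). Cfap44 turned to -1.46 and -0.14, and Pparg to -0.00197 and -0.057, in the settings without 2 and 3 libraries, and Plin4 to -0.0744 in the latter. Gzmk turned to -0.48 with sample weights, -1.01 with group weights and from -0.23 (without lesion 4 at 3 months) to 1.47 leaving out 1 library. The causes were not tested.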
